A study of Homo sapiens with 6 samples.

Results

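Mitosis and spindle genes were examined in BT-549 cells silenced for PBRM1, with 40 genes chosen by symbol for their roles as mitotic kinases, spindle checkpoint proteins, kinetochore proteins, spindle motors and their partners. All 40 symbols were found among the 37887 rows of the count table, and all 40 were among the 15450 genes that passed the filter on low counts. BT-549 is an established triple-negative breast cancer (TNBC) cell line, and PBRM1 is the polybromo subunit of the PBAF chromatin remodeling complex. RNA-seq of poly(A) RNA was performed on 3 control and 3 shPBRM1 libraries. The titles name a control shRNA for the control libraries, which received DMSO at 0.1%, and a PBRM1 shRNA for the shPBRM1 libraries, which received doxycycline at 500 ng/ml. The series design instead gives vehicle or doxycycline for cells that all carry a doxycycline-driven PBRM1 shRNA vector. Both sources put the same libraries in each group, but they differ on which vector the controls carried. Doxycycline and loss of PBRM1 came together in these libraries, so that their effects cannot be told apart. The model is 1 cell line with 1 silencing condition in vector-selected cells grown in triplicate. The study repeated its experiments, but the sources used here do not say whether the libraries of a group came from separate ones, so that p-values measure only the spread between these libraries, which may be technical.

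In the cell cycle, cyclin-dependent kinase 1 (CDK1) with A- and B-type cyclins starts mitosis, and the Aurora and Polo kinases build the bipolar spindle. Kinetochores tie chromosomes to microtubules, while the spindle checkpoint holds back the anaphase-promoting complex until every chromosome is attached. Many of these genes are transcribed together late in the cell cycle, with FOXM1, MYBL2 and the MuvB complex acting through a promoter element called the cell cycle genes homology region (CHR), often with NF-Y bound at CCAAT boxes. These genes are widely used as readouts of proliferation in breast cancer.

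Because 38 of the 40 genes were called higher in these data, as given below, promoters are shown first. RefSeq promoter windows (GRCh38.p14) were matched by symbol for 33 of the 40 genes. AURKA, FOXM1, BUB3, TTK, UBE2C, BIRC5 and TPX2 had no matching entry. The 150 bases before the start are printed, 5′ to 3′ on the plus strand, for a cyclin, a kinase, the anaphase activator, the gene with the largest rise, the cytokinesis scaffold and a cyclin without CHR letters. Capitals mark CHR letters (TTTGAA or TTCGAA) and CCAAT letters on either strand, so that TTCAAA and ATTGG are their reverse complements. The regions are chr15:59104996-59105145 (CCNB2), chr16:23678739-23678888 (PLK1), chr1:43358831-43358980 (CDC20), chr12:53268149-53268298 (ESPL1), chr7:36389712-36389861 (ANLN) and chr5:69167000-69167149 (CCNB1).
CCNB2: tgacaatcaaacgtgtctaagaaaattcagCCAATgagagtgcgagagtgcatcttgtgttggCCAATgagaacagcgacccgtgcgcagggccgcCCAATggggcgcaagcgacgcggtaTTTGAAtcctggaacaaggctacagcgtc
PLK1: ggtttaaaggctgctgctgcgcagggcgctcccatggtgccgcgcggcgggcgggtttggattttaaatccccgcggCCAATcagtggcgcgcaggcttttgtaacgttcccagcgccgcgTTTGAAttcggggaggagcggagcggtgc
CDC20: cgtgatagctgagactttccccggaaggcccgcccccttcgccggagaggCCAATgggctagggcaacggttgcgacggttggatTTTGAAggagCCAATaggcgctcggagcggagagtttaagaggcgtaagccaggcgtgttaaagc
ESPL1: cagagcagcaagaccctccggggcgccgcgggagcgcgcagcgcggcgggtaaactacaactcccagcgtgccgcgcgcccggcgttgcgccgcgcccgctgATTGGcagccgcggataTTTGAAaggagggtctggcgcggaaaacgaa
ANLN: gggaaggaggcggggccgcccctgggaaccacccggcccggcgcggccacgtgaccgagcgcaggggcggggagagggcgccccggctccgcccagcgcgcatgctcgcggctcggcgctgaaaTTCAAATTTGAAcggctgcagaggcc
CCNB1: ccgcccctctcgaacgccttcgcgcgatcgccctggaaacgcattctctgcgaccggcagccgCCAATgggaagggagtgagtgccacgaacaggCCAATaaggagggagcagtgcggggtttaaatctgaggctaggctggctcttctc

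The CHR letters nearest to the start began 29 bases before it in CCNB2 and in PLK1, 31 bases before it in ESPL1, 65 in CDC20 and 20 in ANLN. CCNB1 held no CHR letters and ANLN no CCAAT letters in the stretch printed. Only TTTGAA and TTCGAA counted as CHR letters, so that other spellings of the element would not be seen, in CCNB1 or elsewhere. Over the 250 bases before the start, 19 of the 33 genes had CHR letters, 14 of them within 50 bases of the start. CCAAT letters were found for 27 genes, of which 18 had 2 or more. NDC80, NUF2, CENPE and KIF2C had neither. Counted by window, since some genes have more than 1 start, CHR letters were in 56.8% of the 37 windows of these genes and in 14.3% of all 35116 RefSeq windows of this length. CCAAT letters were in 81.1% and 32.0%, and both together in 48.6% and 5.1%. Matches were counted on both strands, and matches of the 2 motifs may share bases. A match of letters is a description and not a binding site.

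Silencing of PBRM1 was visible in every library of the shPBRM1 group. PBRM1 levels were 158 ± 2.30 CPM (counts scaled to the library size and edgeR's TMM factor, SD, n = 3) in control and 41.9 ± 1.22 CPM (SD, n = 3) in shPBRM1 cells. Libraries held between 36429395 and 65096297 counts, and a floor of 3 counts was equal to 0.0471 to 0.0804 CPM, for counting error only. The mesenchymal markers VIM, CDH2, ZEB1, FN1 and CD44 were each above 100 CPM in all 6 libraries, while the estrogen receptor gene ESR1 had at most 0.0514 CPM. The progesterone receptor gene PGR had at most 0.322 CPM. ERBB2, which TNBC lines can still transcribe, was at 49.6 to 52.4 CPM. Of the 7 markers of blood and endothelial cells, PTPRC was highest, at 0.697 to 0.872 CPM in control and 0.0941 to 0.200 CPM in shPBRM1 libraries, and the others were at or below 0.357 CPM.

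As a group, the mitosis and spindle genes rose in shPBRM1 cells. With edgeR's quasi-likelihood test and Benjamini-Hochberg adjustment over all 15450 genes, 38 of the 40 genes were higher at an adjusted p under 0.05 and 0 were lower. No gene of the 40 had a negative fold change, so that the count of lower genes was also 0 at an unadjusted p under 0.05, and it was 0 with DESeq2. Among all genes tested, 31.5% were called higher and 33.2% lower. The 2 genes without a call were BUB3 and NUSAP1. At the median, the 40 genes had a log2 fold change of 0.82, a fold of 1.76, where the median over all genes tested was -0.0080. The adjusted p of the 38 genes ranged from 1.15e-18 to 0.000148, and the standard error of their log2 fold changes from 0.012 to 0.125. Normalized levels of the groups did not overlap for these 38 genes, each with every shPBRM1 library above every control library, as held for 33.3% of all genes tested in the same direction.

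The rise was moderate and of similar size from gene to gene. It was between 1.51-fold (HMMR) and 2.38-fold (ESPL1) for the 38 genes, and 30 of them lay between log2 fold changes of 0.5 and 1. All 38 were called higher with a log2 fold change of at least 0.5, which was met by 12.1% of all genes tested. Only 8 passed a fold change of 2, where 2.87% of all genes tested were higher and 9.68% lower past this fold. These were ESPL1, CCNA2, AURKA, BIRC5, MAD2L1, KIF11, CCNB2 and SPC25, of which CCNB2 and SPC25 lay at the line, with log2 fold changes of 1.002 and 1.001. The count of 8 depended on the setting, and ESPL1, CCNA2 and AURKA were the 3 genes past a fold of 2 in every one. It was 3 with library size only, 5 without control replicate 1 and 4 without shPBRM1 replicate 3, and KIF11, MAD2L1 and BIRC5 each fell below a fold of 2 in some of these. The SD of the log2 fold changes was 0.22 over the 40 genes and 0.92 over all genes tested. These sets were not matched for level, and the 40 genes were chosen with earlier results of these data known. The genes are spread over 17 chromosomes.

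Per library, the 40 genes together took 0.420%, 0.427% and 0.435% of all counts in the control libraries and 0.734%, 0.716% and 0.728% in the shPBRM1 libraries. Their mean log2 CPM was 5.90, 5.96 and 5.95 in control and 6.75, 6.72 and 6.77 in shPBRM1 libraries. The groups were thus apart by 0.81 on the log2 scale, with an SD of 0.032 in control and 0.026 in shPBRM1 cells. Within a group, the coefficient of variation of a gene's level was under 10% for 37 of the 40 genes, the exceptions being SPC25 (13.0%), PRC1 (11.2%) and NUSAP1 (56.6%). In bulk RNA, a larger share of cells in mitosis and more of these transcripts per cell cannot be told apart.

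**Figure D1:**
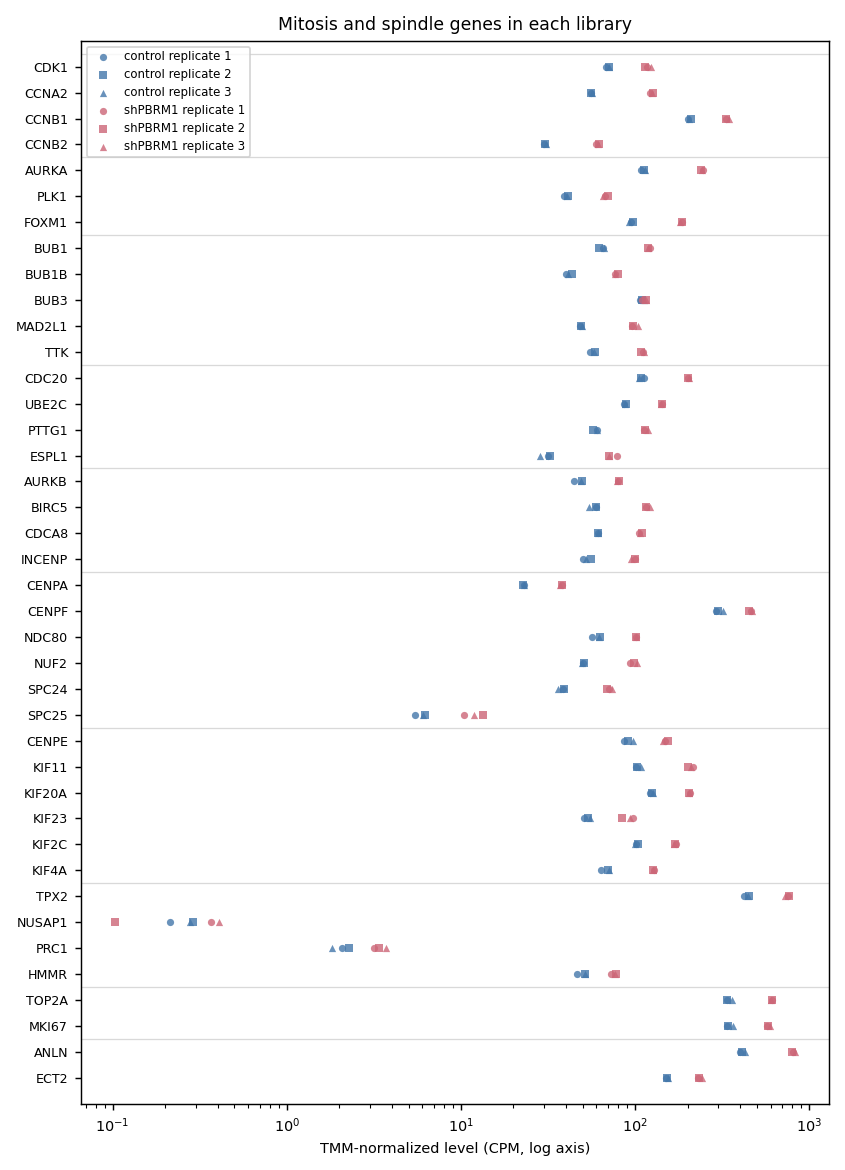
Level of each of the 40 genes (rows, ordered by role) in TMM-normalized CPM on a log x axis, with 1 point a library, blue for the 3 control and red for the 3 shPBRM1 libraries and the shape giving the replicate number. The red points lay to the right of the blue points for 38 genes, BUB3 and NUSAP1 being the exceptions, with NUSAP1 and PRC1 far to the left of the rest.

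All 4 genes of the CDK1 engine rose, with a median log2 fold change of 0.88. CDK1, the kinase that drives entry into mitosis, was at 67.8, 70.9 and 71.2 CPM in control and 116, 114 and 123 CPM in shPBRM1 libraries, a log2 fold change of 0.75 (standard error, SE, 0.040). In CCNB1, which encodes cyclin B1, the main mitotic partner of CDK1, the control libraries were at 202, 208 and 204 CPM and the shPBRM1 libraries at 332, 333 and 348 CPM, a log2 fold change of 0.72 (SE 0.025). CCNA2, which encodes cyclin A2 of S phase and early mitosis, was at 55.8, 55.7 and 56.7 CPM and at 122, 126 and 125 CPM. The rise of CCNA2 was the second largest of the 40 genes, with a log2 fold change of 1.15 (SE 0.016, edgeR quasi-likelihood adjusted p = 1.15e-18). CCNB2, encoding cyclin B2, had a log2 fold change of 1.002.

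Aurora A, PLK1 and FOXM1 also rose. AURKA, which encodes the centrosome kinase Aurora A, was at 108, 113 and 114 CPM in control and 246, 239.9 and 242 CPM in shPBRM1 libraries. The groups were far apart relative to their spread, with a log2 fold change of 1.12 (SE 0.026, edgeR quasi-likelihood adjusted p = 7.65e-18). PLK1, the Polo-like kinase of spindle assembly and mitotic exit, was at 39.0, 41.0 and 40.6 CPM and at 67.6, 69.5 and 65.5 CPM, a log2 fold change of 0.75 (SE 0.034). FOXM1, the forkhead factor that drives transcription of late cell cycle genes, was at 94.7, 97.1 and 92.4 CPM and at 185, 185 and 181 CPM. Its log2 fold change was 0.96 (SE 0.024), with no overlap between the groups.

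In the spindle checkpoint, 4 of 5 genes rose and BUB3 was not called. BUB1, a checkpoint kinase that sits at kinetochores, was at 65.6, 62.0 and 65.9 CPM in control and 122, 119 and 118 CPM in shPBRM1 libraries, a log2 fold change of 0.89 (SE 0.031). BUB1B, which encodes the APC/C inhibitor BUBR1, and TTK, which encodes the kinase MPS1, had log2 fold changes of 0.90 and 0.95. MAD2L1, which encodes the MAD2 protein that holds CDC20 in check, was at 48.3, 49.1 and 49.5 CPM and at 95.9, 97.6 and 104 CPM, a log2 fold change of 1.02 (SE 0.036). BUB3, the partner of both BUB1 and BUBR1, stood apart from the rest of its complex. Its levels were 107, 109.7 and 112 CPM in control and 109, 116 and 115 CPM in shPBRM1 libraries, so that the groups overlapped. The log2 fold change of BUB3 was 0.05 (SE 0.034, edgeR quasi-likelihood adjusted p = 0.202), and it was between 0.0028 and 0.084 under the alternatives.

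The 4 genes of anaphase control rose, with a median log2 fold change of 0.93. CDC20, the activator of the anaphase-promoting complex, was at 112, 108 and 105 CPM in control and 201, 201 and 203 CPM in shPBRM1 libraries, a log2 fold change of 0.90 (SE 0.026). PTTG1, which encodes securin, was at 60.1, 56.9 and 60.5 CPM and at 112, 114 and 119 CPM, a log2 fold change of 0.96 (SE 0.038). Securin binds and restrains separase, the protease that cuts cohesin, and the separase gene ESPL1 had the largest rise of the 40 genes. ESPL1 was at 31.4, 32.7 and 28.5 CPM in control and 78.4, 71.0 and 70.6 CPM in shPBRM1 libraries. Its log2 fold change was 1.25 (SE 0.076, edgeR quasi-likelihood adjusted p = 1.10e-15). UBE2C, the ubiquitin-conjugating enzyme of the anaphase-promoting complex, had a log2 fold change of 0.70.

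The chromosomal passenger complex, which corrects faulty microtubule attachments, rose in all 4 subunits. AURKB, its kinase Aurora B, was at 44.8, 49.6 and 48.7 CPM in control and 80.1, 80.7 and 78.3 CPM in shPBRM1 libraries, a log2 fold change of 0.74 (SE 0.048). BIRC5, which encodes survivin, was at 59.9, 59.7 and 54.3 CPM and at 116, 115 and 122 CPM. Its log2 fold change was 1.02 (SE 0.054), and edgeR's quasi-likelihood test gave an adjusted p = 3.02e-16. The scaffold INCENP and the targeting subunit CDCA8, which encodes borealin, had log2 fold changes of 0.90 and 0.81.

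The 6 centromere and outer kinetochore genes rose as well. CENPA, the histone H3 variant that marks centromeres, was at 22.9, 22.9 and 23.1 CPM in control and 37.9, 38.1 and 37.1 CPM in shPBRM1 libraries, a log2 fold change of 0.71 (SE 0.012). CENPF, a large kinetochore protein of G2 and mitosis, was at 290.1, 299 and 319 CPM and at 463, 452 and 471 CPM, a log2 fold change of 0.61 (SE 0.045). NDC80, NUF2, SPC24 and SPC25 together form the NDC80 complex, which grips the microtubule. NDC80 was at 56.3, 62.9 and 62.2 CPM in control and at 101 CPM in each shPBRM1 library, a log2 fold change of 0.74 (SE 0.051). NUF2, SPC24 and SPC25 had log2 fold changes of 0.97, 0.91 and 1.001. SPC25 had the lowest counts of the 4, at 5.41 to 6.21 CPM in control, and its standard error of 0.125 was the largest among the 38 genes.

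All 6 kinesins rose, with a median log2 fold change of 0.76. KIF11, which encodes Eg5, the motor that pushes spindle poles apart, was at 101, 103 and 109 CPM in control and 216, 202 and 209.9 CPM in shPBRM1 libraries, a log2 fold change of 1.01 (SE 0.043). KIF20A, a central spindle motor needed for cytokinesis, was at 121, 125 and 127 CPM and at 207, 205 and 205 CPM, a log2 fold change of 0.73 (SE 0.021). The other four were the kinetochore motor CENPE (0.70), the centralspindlin motor KIF23 (0.78), the microtubule depolymerase KIF2C (0.74) and the chromokinesin KIF4A (0.90), each with its log2 fold change.

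**Figure D2:**
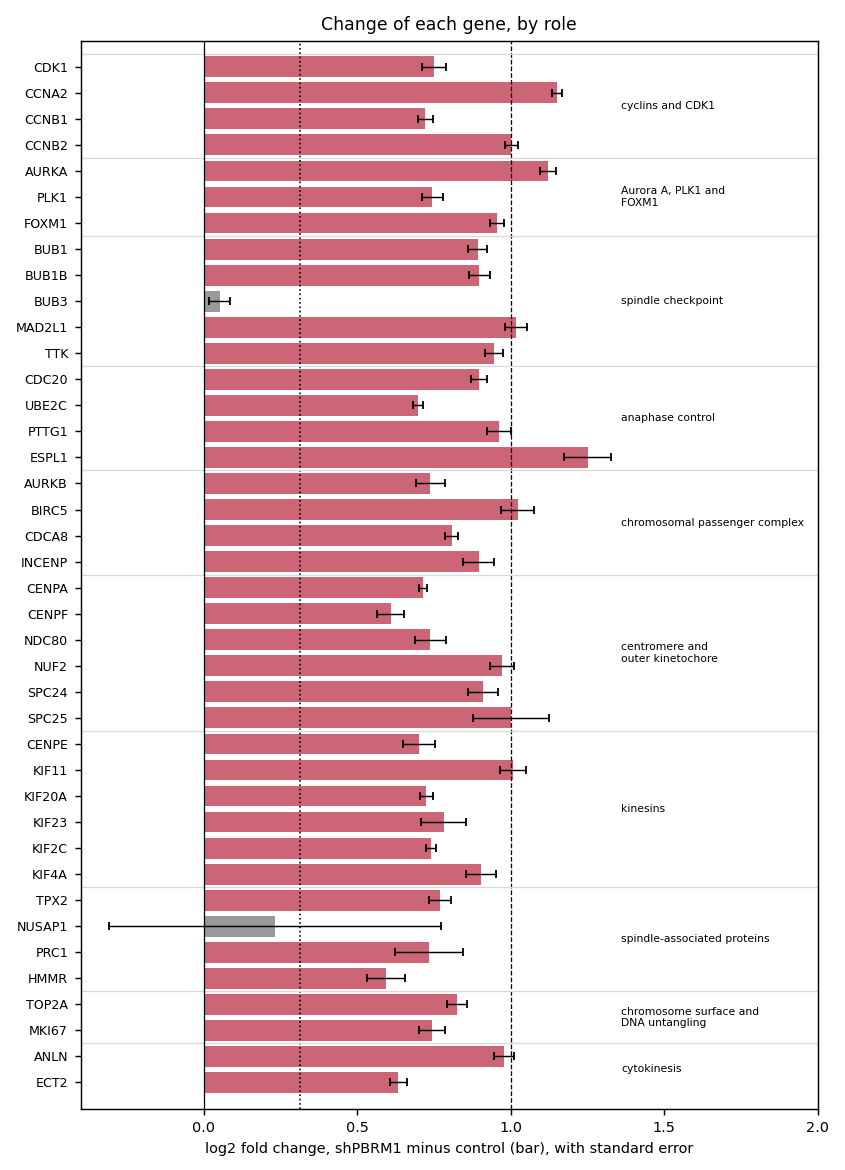
Fitted log2 fold change (shPBRM1 minus control, x axis) of each of the 40 genes, grouped by role, with the standard error from 3 libraries against 3; red bars are genes called higher and grey bars genes not called. The dotted line is the 75th percentile of all genes tested (0.31) and the dashed line is a fold of 2, which 8 genes passed.

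Of the spindle-associated proteins, TPX2, HMMR and PRC1 rose. TPX2, the activator of Aurora A on the spindle, was at 420.4, 448 and 444 CPM in control and 750.2, 761 and 727 CPM in shPBRM1 libraries, a log2 fold change of 0.77 (SE 0.035). HMMR, a spindle pole protein, had the smallest called rise, with a log2 fold change of 0.59. TOP2A, the topoisomerase that untangles sister chromatids, was at 335, 338 and 359 CPM and at 614, 609.8 and 604 CPM, a log2 fold change of 0.82 (SE 0.032). MKI67, which encodes the Ki-67 protein coating mitotic chromosomes and used in pathology as a proliferation marker, was at 335, 342 and 366 CPM and at 571, 582 and 592 CPM, a log2 fold change of 0.74 (SE 0.042). The cytokinesis genes closed the series of roles with the same direction. ANLN, which encodes the contractile ring scaffold anillin, was at 402, 408 and 427 CPM and at 803.5, 798 and 832 CPM, a log2 fold change of 0.98 (SE 0.032). ECT2, which activates RhoA at the cleavage site, had a log2 fold change of 0.63.

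NUSAP1 and PRC1 were set apart by their low counts. NUSAP1, a microtubule-bundling protein gene, had 8, 14 and 14 counts in control and 22, 4 and 26 counts in shPBRM1 libraries, so that the groups overlapped. Its log2 fold change was 0.23 with an SE of 0.54 (edgeR quasi-likelihood adjusted p = 0.676). Whether a rise as large as that of the other genes could be detected at this depth was not tested. PRC1, which bundles antiparallel microtubules in the central spindle, had 77, 111 and 92 counts in control and 190, 132 and 235 counts in shPBRM1 libraries. Its log2 fold change was 0.73 (SE 0.11, edgeR quasi-likelihood adjusted p = 0.000148). In the GENCODE v29 annotation of GRCh38, 62.2% of the exon bases of NUSAP1 are shared with AC087721.2, a gene on the same strand, and 58.4% of those of PRC1 with AC068831.7 and PRC1-AS1. These were the only genes of the 40 with 20% or more of their exon bases shared, and 24 genes shared none. FOXM1, PLK1 and BUB1B, at 15.9%, 12.5% and 10.2%, came next. By default the counting tool leaves out reads that fall on exons of several genes, and the setting used for these files is not given in the sources used here. The part of this overlap in the low counts was not tested. Rows named as a copy or pseudogene existed for 8 genes and held at most 1.69% of the counts of the parent gene, for CDC20.

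On a scale per length, in CPM per kb of exon, the highest levels in control cells were those of TPX2 (121 in control and 207 in shPBRM1 cells), CCNB1 (80.0 and 132), ANLN (68.6 and 135), UBE2C (68.1 and 110.4) and TOP2A (53.4 and 94.7). In shPBRM1 cells ANLN was above CCNB1, and CDC20, at 99.1, was above TOP2A. PRC1 (0.372 and 0.618) and NUSAP1 (0.0904 and 0.102) were the lowest of the 40 genes on this scale in both groups. The median level of the 40 genes was 16 CPM per kb in control and 29.6 CPM per kb in shPBRM1 cells.

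**Figure D3:**
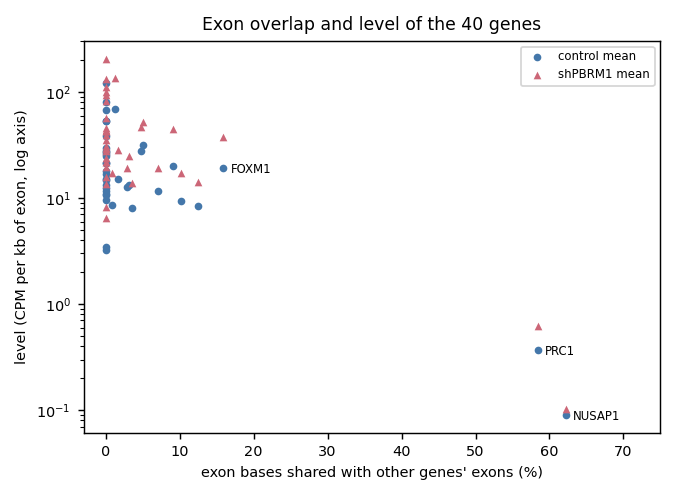
Mean level of the 40 genes in CPM per kb of exon (log y axis) against the percentage of exon bases that each shares with exons of other genes in GENCODE v29 (x axis); circles are control means and triangles shPBRM1 means of 3 libraries. NUSAP1 (62.2%) and PRC1 (58.4%) are the 2 genes at the lower right, below all others in level.

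To see how far the rise extended over the mitotic machinery, 134 other genes in 9 lists were described in the same fit. Of these, 104 were higher, 15 were lower and 15 were not called, with a median log2 fold change of 0.39, and 11 passed a fold change of 2, all upward. Among all genes tested, 31.5% were called higher and 33.2% lower, and 2.87% were higher past a fold of 2. These shares are also the ones to set beside the counts of each list below. The 134 genes thus moved mostly in the direction of the 40 genes but by less at the median, a difference that was not tested. All 8 condensin genes, which compact mitotic chromosomes, were higher, with a median of 0.86. NCAPG, which shares 33.1% of its exon bases with LCORL, had a log2 fold change of 1.08, NCAPD2 of 1.04 and NCAPG2 of 0.93. In contrast, the cohesin list, which holds sister chromatids together, had 8 higher and 1 lower of 12 genes, with a median of 0.18. Within the cohesin list, the centromeric protectors SGO1 (0.75) and SGO2 (0.63) and the stabilizer CDCA5 (0.64), which encodes sororin, had the largest log2 fold changes.

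The inner kinetochore and CENPA-loading list had 17 of 18 genes higher and 0 lower, with a median of 0.57 and the last gene, CENPT, at 0.05. CENPI was at 40.4, 41.9 and 43.9 CPM in control and 108, 106 and 107 CPM in shPBRM1 libraries, a log2 fold change of 1.34 (SE 0.036). OIP5 (1.13), which shares 38.0% of its exon bases with OIP5-AS1, and CENPW (1.05) followed. In the other outer kinetochore list, 12 of 14 genes were higher and MIS12 was lower (-0.20), and KNL1 (0.94), ZWINT (0.93) and SPDL1 (0.66) had the largest log2 fold changes. All 8 other mitotic kinesins were higher, with a median of 0.55, led by KIF15 (0.92), KIF20B (0.88) and KIF14 (0.70). Of 21 other spindle, pole and midbody genes, 16 were higher and 3 (NUMA1, HAUS2 and HAUS5) were lower, and DLGAP5 (1.11), HAUS8 (1.06) and ASPM (0.97) rose most. Among 17 subunits and regulators of the anaphase-promoting complex, 12 were higher and ANAPC2 was lower (-0.35), with a median of only 0.25. ANAPC15 (0.65), with 27.1% of its exon bases shared, FBXO5 (0.57) and ANAPC11 (0.49) had its largest log2 fold changes.

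In the list of kinases, phosphatases and other proteins around mitotic entry, 13 of 14 genes were higher, with a median of 0.53. CCNF, which encodes the F-box protein cyclin F, was at 24.0, 24.1 and 23.7 CPM in control and 58.3, 60.9 and 57.2 CPM in shPBRM1 libraries, a log2 fold change of 1.30 (SE 0.028). GTSE1 (1.06) and the centrosome kinase NEK2 (0.90) followed, while the phosphatase gene CDC25B was lower (-0.22).

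Of 22 genes for MuvB, MYB, E2F, RB and NF-Y factors, which regulate transcription of the mitotic genes, 10 were higher and 8 were lower, with a median log2 fold change of -0.0094. Over all genes tested, 31.5% were higher and 33.2% lower, so that these counts are not read as a result about the regulators. MYBL2, the MYB factor that joins MuvB in S phase, was at 104, 111 and 107 CPM in control and 281, 286 and 275 CPM in shPBRM1 libraries. Its log2 fold change of 1.39 (SE 0.030, edgeR quasi-likelihood adjusted p = 2.24e-19) was above that of each of the 40 genes. E2F8 (0.54) and E2F1 (0.52) were also higher. So were the MuvB genes LIN9 (0.38), RBBP4 (0.32) and LIN54 (0.21), and E2F3 (0.21), E2F6 (0.21), E2F2 (0.20) and NFYA (0.21). RB1, which encodes the retinoblastoma protein that restrains E2F factors, was at 30.1, 28.6 and 26.7 CPM and at 23.9, 23.6 and 24.4 CPM, a log2 fold change of -0.24 (SE 0.052, edgeR quasi-likelihood adjusted p = 0.000936). The related pocket protein genes RBL1 (-0.39) and RBL2 (-0.15) were lower too, as were TFDP2 (-0.44), LIN52 (-0.34), E2F4 (-0.25), E2F7 (-0.20) and NFYC (-0.19).

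**Figure D4:**
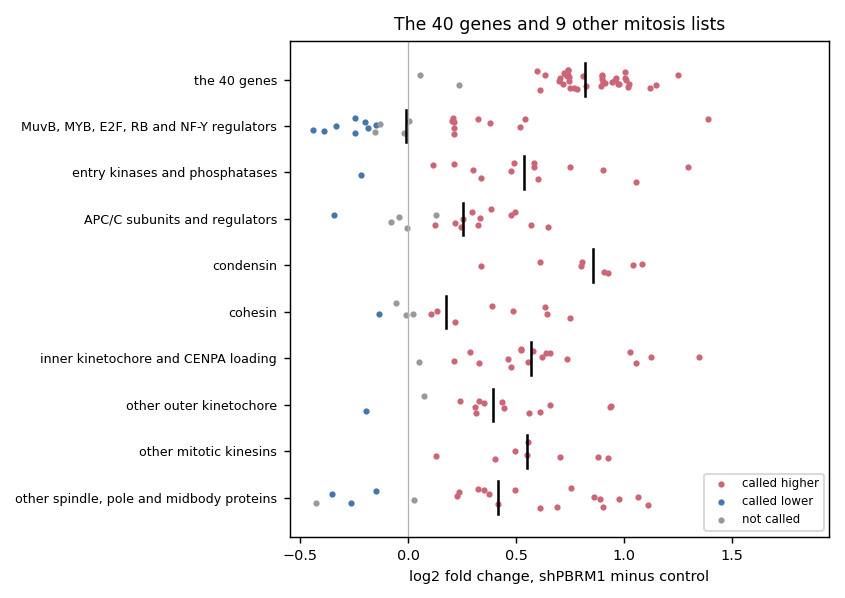
Fitted log2 fold change (shPBRM1 minus control, x axis) of the 40 genes and of the genes of 9 other mitosis lists, with 1 point a gene, its color giving the call and a black bar the median of each list. The 40 genes have a median of 0.82 and the condensin list 0.86, while the list of regulators lies on both sides of 0, with MYBL2 at its right end.

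Genes of DNA replication and of cell cycle arrest were set beside the mitotic genes after their values were seen. Of MCM2 to MCM7, the subunits of the replicative helicase, and PCNA, the sliding clamp, 3 of 7 were higher and MCM6 was lower (-0.22), with a median log2 fold change of 0.047. PCNA was highest at 0.53, below HMMR, the least of the 38 genes. Among all genes tested, 31.5% were higher and 33.2% lower, so that the counts of this list are not read as a result about replication genes. The difference between this list and the 40 genes was not tested. CDKN1A, which encodes the CDK inhibitor p21, was at 36.5, 40.2 and 39.0 CPM in control and 12.5, 14.3 and 14.2 CPM in shPBRM1 libraries, a log2 fold change of -1.50 (SE 0.077, edgeR quasi-likelihood adjusted p = 2.17e-15). CDKN1B, which encodes p27, had a log2 fold change of 0.0091 with overlapping groups. The part of CDKN1A, MYBL2 or RB1 in the rise of the mitotic genes was not tested.

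Promoter letters were last set against the changes. Among the 40 genes, the median log2 fold change was 0.83 for the 19 with CHR letters and 0.74 for the 14 with a window and none. In the 9 other mitosis lists, where 118 of the 134 genes had a window, 86.5% of 37 genes with CHR letters were higher, with a median of 0.50, and 71.6% of 81 genes without them, with a median of 0.33. Of the 15450 genes tested, 11173 had a window, and 33.1% of these were higher. These genes were split by both motifs and not by CHR letters alone, and 799 carried both CHR and CCAAT letters. Of the 799 genes, 38.4% were higher, with a median of 0.011, where 31.6% of the 5841 genes with neither were higher, with a median of -0.030. These are descriptions across genes that share libraries, and no difference between them was tested.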

How the data were processed

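RNA-seq of BT-549 cells was analyzed for 3 control and 3 shPBRM1 libraries, grouped and numbered by their sample titles. The deposited values are raw counts for each gene symbol, which the authors had not normalized. The submitters' processing notes name CASAVA 1.8.2, STAR 2.7.9a, featureCounts, DESeq2 1.24.0 and GRCh38.p7. The annotation and the strand setting used for counting are not given in the sources used here. Of the 37887 rows, 14 carry dates in place of symbols and were kept unnamed.

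Here, the quasi-likelihood F-test of edgeR 4.0.16 (R 4.3.3) was run on genes passing filterByExpr, with TMM factors and Benjamini-Hochberg adjustment. Calls used an adjusted p under 0.05. Levels are CPM scaled by TMM over the tested genes. Standard errors are those of log2 CPM across libraries (2 counts added). The floor of detection is 3 counts. Exon lengths and overlaps are from GENCODE v29 (GRCh38), matched by symbol, and promoters from RefSeq (GRCh38.p14), searched over 250 bases.

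The 40 genes, the lists and the tests were chosen with earlier results of these data known. Values in every library were given for 20 genes picked by role, for the 5 with the largest rise, and the other members by range, count and fold change. From each other list the 3 genes with the largest absolute change among called genes were named, besides RB1, MYBL2 and PBRM1. Genes named as lower, further regulators named as higher, DNA replication genes and CDK inhibitors were named after their values were seen.

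Libraries of 1 group differed beyond sampling noise (chi-square per degree of freedom 4.66 to 22.6). The value was 19.5 and 22.6 for shPBRM1 replicate 1 against replicates 2 and 3, and 4.66 to 6.86 for the other pairs. Whether replicate numbers in the titles pair the libraries is not settled. Over 5622 genes, deviations from the group means correlated at 0.734, 0.593 and 0.419 for the same number, and at -0.671 to 0.464 for different numbers. The 0.464 was for control 2 with shPBRM1 3, above the 0.419 for number 3. Deviations from a mean of 3 libraries depend on each other. The p-values given come from the fit without a replicate block. Alternatives were DESeq2 1.42.0, RLE factors, library size only, no filter, a mean of at least 50 counts, stricter thresholds, a prior count of 0.5, the replicate block and each library left out. Simulated counts with 200 genes changed 1.75-fold were used to check the tests: edgeR recovered 156 of them among 15235 genes tested, with 16 false calls. In the data far more genes were called, 31.5% higher and 33.2% lower. The simulation does not check the tests or the TMM factors at such shares.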

Additional observations from a re-analysis of the deposited data

How the results depend on the processing

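The counts of 38 higher and 0 lower among the 40 genes did not change with RLE factors, library size only, no filter, a mean of at least 50 counts, DESeq2, an adjusted p under 0.001, the replicate block, or any 1 library left out. With a fold change over 2 the count of higher genes was 8 (4 to 8 without 1 library, 3 with library size only, 5 with a mean of at least 50 counts, 5 with the block plus GC and length offsets), that of the 134 other mitosis genes was 11 higher and 0 lower, and with an adjusted p under 0.001 the others had 8 lower. The difference in mean log2 CPM of the 40 genes, 0.81, was 0.77 with library size only, where the median of all genes tested was -0.056. Without 1 library at a time, the counts were 38 to 38 higher and 0 to 0 lower for the 40 genes and 99 to 104 higher and 14 to 16 lower for the others, the median log2 fold change was 0.81 to 0.84, and the difference in mean log2 CPM was 0.80 to 0.83. NUSAP1 changed sign without shPBRM1 replicate 3, and its log2 fold change was -0.060 to 0.56 when 1 library was left out. With the replicate block, 38 of the 40 genes were higher and 104 and 16 of the others were higher and lower, the median was 0.82, and no call among the 40 genes changed. An added fit, chosen after seeing the data, with the block plus GC and length offsets gave 38 higher and a median of 0.81, and the median, likewise added, was 0.86 without NUSAP1 and PRC1. Of 519 values of single genes under the alternatives, 518 kept their direction and their side of the threshold. Depth limits NUSAP1 most among the 40 genes, with 4 to 26 counts in a library.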
